A study of Mus musculus with 24 samples.

Results

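Microglia of 12-month DBA/2J retinas were compared with microglia of 12-month retinas of the control strain DBA/2J Gpnmb+. The comparison used 19 of the 24 retinas in the series, chosen by the strain and age in their labels: 10 retinas of 5 DBA/2J mice and 9 retinas of 5 Gpnmb+ mice. The DBA/2J animals are labelled Gpnmb-/- Tyrp1b-/- and the control animals Gpnmb+/+ Tyrp1b-/-, so both groups share the DBA/2J background and the Tyrp1 genotype, and the labels record no treatment. The 12-month DBA/2J retinas are graded mild, moderate or severe, and all grades were used together. A further 5 retinas of 5 DBA/2J mice aged 6 months, labelled as early disease, shared the estimate of the spread between animals, and their values stand beside some results. Cells positive for CD11b and FCRLS and negative for Ly6c were sorted, 100 to 600 per retina, and their RNA was sequenced as 1 library per retina. Both eyes of a mouse were added up before any comparison, and n counts mice.

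Microglia are the resident macrophages of nervous tissue. In the healthy retina they survey synapses with receptors such as P2ry12 and Cx3cr1, and near damaged neurons they take up a disease-associated (neurodegenerative, MGnD) state in which genes of lipid transport, lysosomal digestion, complement and antigen presentation are known to be induced. DBA/2J mice develop an age-related glaucoma: pigment shed by the iris blocks the outflow of the eye, pressure builds up and retinal ganglion cells die. A working Gpnmb, which encodes a glycoprotein of pigment cell organelles that macrophages also make, largely prevents the pressure rise, and this makes the Gpnmb+ strain the usual control.

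The libraries of the 2 groups were not alike. In 12-month DBA/2J the total count per retina was 1706775 to 20081114 with 10703 to 15046 genes detected (at least 1 count). In Gpnmb+ it was 977886 to 14845311 with 3469 to 14468 genes. All 5 retinas with fewer than 10000 genes were Gpnmb+ retinas, both eyes of animals 1 and 2 and the right eye of animal 3. Leaving them out keeps 4 retinas of 3 control animals, and the leading results below are given with and without them. Gpnmb itself had 459 counts (30.9 CPM, counts scaled to a common library total) in the left eye of Gpnmb+ animal 5 and 0 in the other 8 Gpnmb+ retinas and in the 10 DBA/2J retinas. Tyrp1 had 0 counts in all 19. Neither gene therefore checks the strain labels.

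The sorted cells carried the RNA of microglia in both groups. P2ry12, a purine receptor gene and microglial marker, ranked 37th in 12-month DBA/2J and 29th in Gpnmb+ by the deposited TPM, a level scaled for gene length, with 1973 ± 687 against 2530 ± 1014 TPM (SD, n = 5 animals each). Tmem119 ranked 53rd and 71st, and Siglech 95th and 76th. The RNA of Fcrls, whose protein was used for the sort, was low, at 20.4 ± 18.2 against 12.8 ± 13.6 TPM, and was listed at 0 in 2 DBA/2J and 4 Gpnmb+ retinas. Of the markers of other cells looked at, Gfap (astrocytes), S100a8 (neutrophils), Cd3e (T cells) and Hba-a1 (red cells) were listed at 0 in every 12-month retina, and others were not. Glul, a gene of Muller glia, was above 0 in every 12-month retina, with 190 ± 12.8 TPM in DBA/2J and 187 ± 76.4 in Gpnmb+. Aqp4 and Rlbp1, other markers of these glia, were at 0 in 9 and 7 of the 10 DBA/2J retinas. In Gpnmb+ they were at 0 in 8 and 7 of the 9 retinas. The endothelial gene Pecam1 reached an animal mean of 15.3 TPM in DBA/2J and 34.5 in Gpnmb+, and Mrc1, of border macrophages, 13.1 and 36.1. Plac8 (monocytes) and Cd79a (B cells) were at 0 in DBA/2J and reached 18.8 and 2.23 TPM in Gpnmb+. Rod photoreceptor RNA was present: Gnat1, the rod transducin chain, averaged 182 ± 86.7 TPM in DBA/2J and 537 ± 876 in Gpnmb+, where animal means ran from 47.7 to 2090.03.

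Among the 12977 genes tested, none passed once p was adjusted for all of them (edgeR quasi-likelihood test, 0.0% called at 0.05, lowest adjusted value 0.313). An unadjusted p under 0.05, or nominal p, was reached by 358 genes with a higher mean in DBA/2J (2.76% of those tested) and 318 with a lower mean (2.45%), 676 in all where evenly spread p would give 649. In 108 genes (0.832%) all 5 DBA/2J animals lay above all 5 Gpnmb+ animals, and in 37 (0.285%) all 5 lay below. The median log2 fold change of all genes tested, DBA/2J over Gpnmb+, was 0.05, and 52.5% of them were positive. DESeq2, run on the same sums, called 104 genes (0.801%), 57 higher and 47 lower, of which 59 had an average log2 CPM under 4. Without the 5 control retinas under 10000 genes edgeR again called 0 genes (smallest adjusted p 0.135), and 4.77% of the 14275 genes then tested were higher and 2.63% lower by nominal p. The genes below are therefore those that ranked highest, given with their values; words such as higher and lower refer to means and not to a passed test. Of the 12 genes per direction with the smallest p and an average log2 CPM of at least 4, DESeq2 called 10 of the higher and all 12 of the lower ones. This is no independent check, because the genes were picked by p on the same sums.

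**Figure D1:**
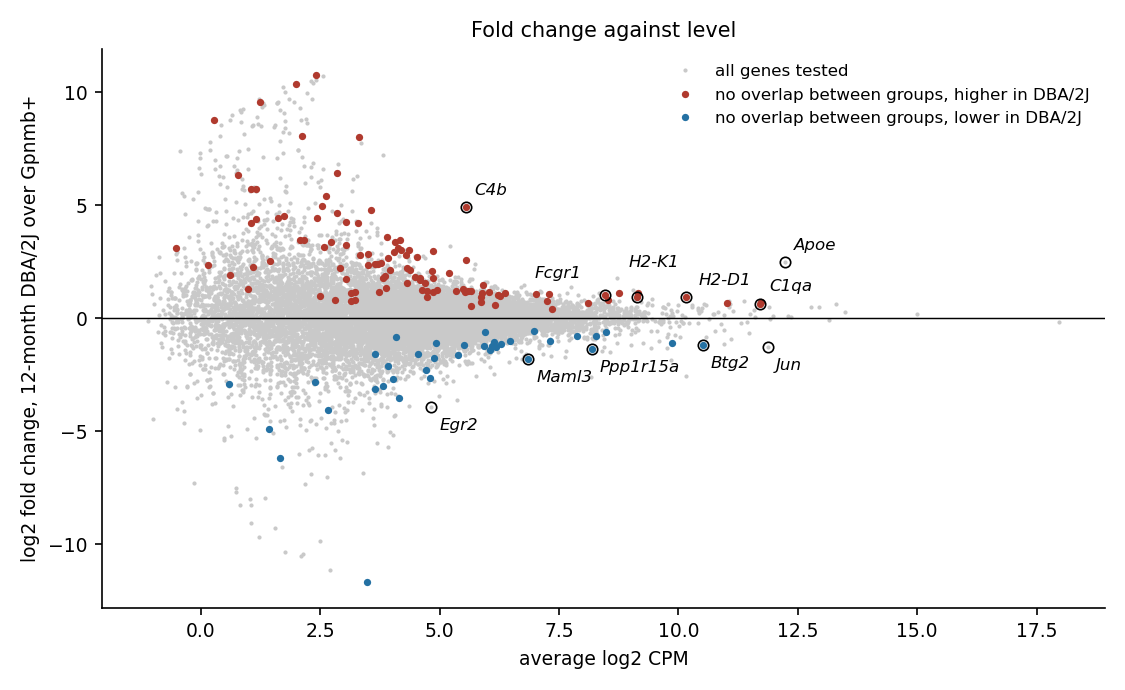
Each point is 1 of the 12977 genes tested, with the average log2 CPM over animals on the x axis and the log2 fold change of 12-month DBA/2J over Gpnmb+ on the y axis. Red points are the 108 genes whose DBA/2J animals all lay above the Gpnmb+ animals, blue points the 37 whose animals all lay below, and circles mark genes named in the text, among them Fcgr1 at 1.03 and Ppp1r15a at -1.35.

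The gene with the smallest p was Fcgr1, which encodes the high-affinity activating receptor for immunoglobulin G. It had 553, 579, 527, 558 and 367 CPM in DBA/2J animals 1 to 5 and 278, 272, 194, 208 and 317 CPM in Gpnmb+ animals 1 to 5. The groups did not overlap, with DBA/2J animal 5 nearest to the controls. The log2 fold change was 1.03 ± 0.21 (SE; edgeR adjusted p = 0.313), and 0.99 ± 0.22 without the retinas under 10000 genes. At 6 months DBA/2J microglia had 290.3 ± 45.4 CPM (SD, n = 5), beside 517 ± 86.0 at 12 months and 254 ± 51.3 in Gpnmb+.

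Fcgr2b, the inhibitory receptor of the same family, was also separated. Its 5 DBA/2J animals had 1032, 1044, 855, 796 and 595 CPM and its 5 Gpnmb+ animals 402, 135, 509, 386 and 569.8 CPM. The nearest animals of the groups, 595 and 569.8, were close, and the low value of 135 belongs to Gpnmb+ animal 2, both of whose retinas had few genes. The log2 fold change was 1.11 ± 0.30, and 0.77 ± 0.24 without the retinas under 10000 genes. The low-affinity activating receptor Fcgr3 overlapped between groups (0.70 ± 0.21, 846 ± 238 against 522 ± 106 CPM), as did Fcer1g, the signalling chain that these activating receptors share (0.62 ± 0.25). Of 22 Fc gamma and phagocytic receptor genes tested, 6 were higher and 1 lower by nominal p, beside 2.76% and 2.45% of all genes. The receptor kinase Axl, which binds ligands on dying cells, was among the 6 (1.38 ± 0.51, 155 ± 55.4 against 59.7 ± 43.4 CPM), and so was Trem2, a lipid-sensing receptor of the disease-associated state (0.38 ± 0.18). The list's median was 0.37 with all retinas and 0.19 without those under 10000 genes.

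Complement proteins tag synapses and debris for uptake, and C1q, built of the chains C1qa, C1qb and C1qc, starts the classical cascade. C1qa had 4671, 4461, 4106, 4906 and 3487 CPM in DBA/2J and 2654, 2240.2, 2976, 2633.5 and 3344 CPM in Gpnmb+. C1qb had 5155, 4539, 3932, 5894 and 3316 CPM in DBA/2J and 3005, 2224, 3098, 2441 and 2989.9 CPM in Gpnmb+. For both chains the lowest DBA/2J animal, number 5, lay just above the highest Gpnmb+ animal. The log2 fold changes were 0.64 ± 0.13 for C1qa and 0.73 ± 0.16 for C1qb (edgeR adjusted p = 0.313 for each), and 0.53 ± 0.14 and 0.69 ± 0.18 without the retinas under 10000 genes.

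The third chain went the other way in its mean: C1qc had 1131, 1767, 1412, 1979 and 1608 CPM in DBA/2J and 2332, 2246, 1271, 775 and 2890.4 CPM in Gpnmb+. Its Gpnmb+ animals spread around the DBA/2J animals on both sides, and its log2 fold change was -0.27 ± 0.31. C4b, which acts directly after C1q, had the largest fold change of the complement genes without overlap. It had 180.4, 179, 148, 39.05 and 104 CPM in DBA/2J and 0.0908, 0, 0, 11.7 and 9.59 CPM in Gpnmb+. Every DBA/2J animal lay above every Gpnmb+ animal, and the fitted log2 fold change was 4.91 ± 1.53 (4.20 ± 1.48 without the retinas under 10000 genes). C4b can share reads with its paralog C4a. The integrin chain Itgb2, part of the complement receptors, had 508 ± 121 against 299 ± 140 CPM (0.76 ± 0.29), and 0.42 ± 0.23 without those retinas. Of 15 complement genes tested 13 were positive, beside 52.5% of all genes, and 7 were higher and 0 lower by nominal p, beside 2.76% and 2.45%. Among the 7 were Cfb (7.16 ± 7.33 against 0.0121 ± 0.027 CPM) and Cd93 (2.70 ± 2.93 against 0 CPM). Both are at or near 0 in Gpnmb+ and passed the filter on low counts only through DBA/2J animals, so their direction adds little to the count. The list's median was 0.73 with all retinas and 0.53 without those under 10000 genes.

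Class I MHC molecules, a heavy chain paired with B2m, present peptides that the proteasome has cut. H2-D1, a heavy chain, had 1603, 2378, 2031, 1327 and 1195 CPM in DBA/2J and 662, 1099, 846, 853 and 1007 CPM in Gpnmb+. H2-K1, the other classical heavy chain measured here, had 791, 1128, 1100.4, 648 and 570.4 CPM in DBA/2J and 407, 396, 529, 349 and 501 CPM in Gpnmb+. Neither gene overlapped between the groups, and DBA/2J animals 2 and 3 were highest for both. The log2 fold changes were 0.93 ± 0.20 and 0.96 ± 0.22 (edgeR adjusted p = 0.313 and 0.323), and 0.91 ± 0.22 and 0.95 ± 0.25 without the retinas under 10000 genes. Reads can be divided between these close paralogs, and the DBA/2J sequence of the locus differs from the reference in all groups alike.

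B2m had 3246, 2975, 2748, 3889.95 and 1875 CPM in DBA/2J and 2049, 1365, 1828, 1611 and 1877 CPM in Gpnmb+. DBA/2J animal 5 lay inside the control range and the other 4 above it, with a log2 fold change of 0.76 ± 0.18. Psmb8, a subunit of the immunoproteasome, had 246 ± 49.4 against 136 ± 48.0 CPM (0.86 ± 0.26), and Psmb10, another such subunit, 126 ± 54.2 against 52.3 ± 24.3 (1.26 ± 0.44). The peptide transporter genes were not higher, with Tap1 at -0.38 ± 0.51 and Tap2 at -0.01 ± 0.34. Of 20 class I presentation genes tested 17 were positive (52.5% of all genes), and 8 were higher and 0 lower by nominal p (2.76% and 2.45% of all genes). The median log2 fold change was 0.73 both with all retinas and without those under 10000 genes.

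The upstream sequences of these 3 genes are shown because the genes ranked high together, and because H2-D1 and H2-K1 are near-copies there. They are RefSeq sequences of the GRCm38.p6 build, 5′ to 3′ on the gene's strand, from H2-D1 at chr17:35262899-35262976 (plus strand), H2-K1 at chr17:34000405-34000482 (minus strand) and B2m at chr2:122147525-122147582 (plus strand). Capitals mark GGGATTCC, letters of the kappaB type, and AANNGAAA, the core letters of interferon regulatory factor sites, each searched on both strands and independently, so that matches could share bases.
H2-D1: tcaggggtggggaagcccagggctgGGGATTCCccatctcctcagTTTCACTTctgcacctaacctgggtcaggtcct
H2-K1: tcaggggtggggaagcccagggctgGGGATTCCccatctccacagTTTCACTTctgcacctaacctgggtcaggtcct
B2m: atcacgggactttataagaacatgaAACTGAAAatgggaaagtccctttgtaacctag
The windows of the 2 heavy chains, 78 bases each, differ at 1 position in the reference. Both lie upstream of a RefSeq start. The GENCODE M21 annotation, used for gene coordinates, starts H2-D1 at 35262730, so the H2-D1 window lies inside the gene there. The DBA/2J sequence was not looked at, and these letters may differ in it. In the 250 bases before a listed start, GGGATTCC was found in 4 of the 17 class I presentation genes with an entry in the table (23.5%). The 4 are the related heavy chain genes H2-D1, H2-K1, H2-Q6 and H2-Q7, so these matches are not independent of each other. Among the 8908 tested genes with an entry the share was 1.19%. AANNGAAA was found in 9 of the 17 (52.9%) and in 19.2% of the tested genes. These are matches of letters and say nothing of binding in these cells.

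Cathepsins digest proteins in the lysosome, and Ctss also trims the chain that guards class II MHC. Ctss had 15405, 11645, 13232, 15751 and 8717 CPM in DBA/2J and 9067, 6259, 8368, 7942 and 9551 CPM in Gpnmb+. Animal 5 of DBA/2J lay within the controls and the other 4 above them, with a log2 fold change of 0.65 ± 0.15 (edgeR adjusted p = 0.323). Ctsz did not overlap, with 2052 to 3218 CPM in DBA/2J and 1069 to 1965 in Gpnmb+ (0.69 ± 0.17, and 0.60 ± 0.17 without the retinas under 10000 genes). The aspartic protease Ctsd (0.49 ± 0.14) and the cysteine protease Ctsl (0.84 ± 0.24) overlapped between groups. Of 38 genes of the cathepsin and lysosome list tested, 13 were higher and 2 lower by nominal p, against 2.76% and 2.45% of all genes. Among the lower ones was Lamp1, a main protein of the lysosomal membrane (-1.09 ± 0.35, 210 ± 77.7 against 446 ± 193 CPM, and -0.65 ± 0.45 with the few-gene retinas left out). The median was 0.39, and 0.23 without the retinas under 10000 genes.

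Apoe, the lipid carrier that leads the disease-associated state, had the largest fold change among the 12 higher genes of smallest p and also the widest spread. It had 23379, 13982, 8099, 3474 and 5903 CPM in DBA/2J and 483, 2006, 1772, 692 and 4899 CPM in Gpnmb+. DBA/2J animal 4 lay below Gpnmb+ animal 5, and the other 4 DBA/2J animals lay above all controls. The log2 fold change was 2.48 ± 0.58 (edgeR adjusted p = 0.337), and 2.11 ± 0.65 without the retinas under 10000 genes. DBA/2J microglia at 6 months had 1500 ± 646 CPM (SD, n = 5). Npc2, a cholesterol carrier of the lysosome, had a smaller log2 fold change, 0.74 ± 0.24. So did Soat1, which esterifies cholesterol (0.98 ± 0.40, or 0.40 ± 0.36 without those retinas). Ch25h, which makes an oxysterol, had 44.7, 26.4, 11.8, 0 and 1.63 CPM in DBA/2J, and in Gpnmb+ it was at 0 in 4 animals and at 6.52 in animal 5. Of 21 lipid genes tested 18 were positive (all genes 52.5%), and 4 were higher and 0 lower by nominal p (all genes 2.76% and 2.45%), with a median of 0.74, or 0.49 without those retinas. Among the 4 was Apoc2, with 3.75 ± 3.46 CPM in DBA/2J and 0 in Gpnmb+. It passed the filter on low counts only through DBA/2J animals, so its direction adds little to the count. Ch25h, counted among the 18, also could not have passed without the 12-month DBA/2J animals, and its direction adds little either.

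The wider disease-associated list was mixed. Of its 33 members tested 25 were positive, and 13 were higher and 3 lower by nominal p, where all genes had 2.76% and 2.45%. The median was 0.70, or 0.61 without the retinas under 10000 genes. Among the 25 positive members, Ch25h and Lgals3 were at or near 0 in most Gpnmb+ animals. Neither could have passed the filter on low counts without the 12-month DBA/2J animals, so their direction adds little. The higher members were lysosomal, lipid and MHC genes for the most part, and 7 of the list's members are shared with the lysosomal list, 5 with the lipid list and 2 with the class I list. Cd63, a tetraspanin of lysosomes and vesicles, had 336 ± 125 against 154.5 ± 69.7 CPM (1.12 ± 0.36). The 3 lower members were the chemokines Ccl3 (-1.33 ± 0.46) and Ccl4 (-1.43 ± 0.65) and the lectin receptor Clec7a. Without the retinas under 10000 genes Ccl3 was at -0.56 ± 0.44 and Ccl4 at -0.16 ± 0.61, and 0 members of the list were lower by nominal p. Clec7a, a usual marker of the state, had 34.0, 58.5, 81.5, 15.2 and 136 CPM in DBA/2J and 159, 151, 149.9, 186 and 73.7 CPM in Gpnmb+. Of the DBA/2J animals 3 lay below all controls (-1.14 ± 0.50), and its log2 fold change was -0.75 ± 0.59 without the retinas under 10000 genes. Other usual markers had errors about as large as their fold changes: Spp1 was at 1.59 ± 1.38, Lgals3 at 1.69 ± 2.06 and Itgax at 2.26 ± 1.49.

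**Figure D2:**
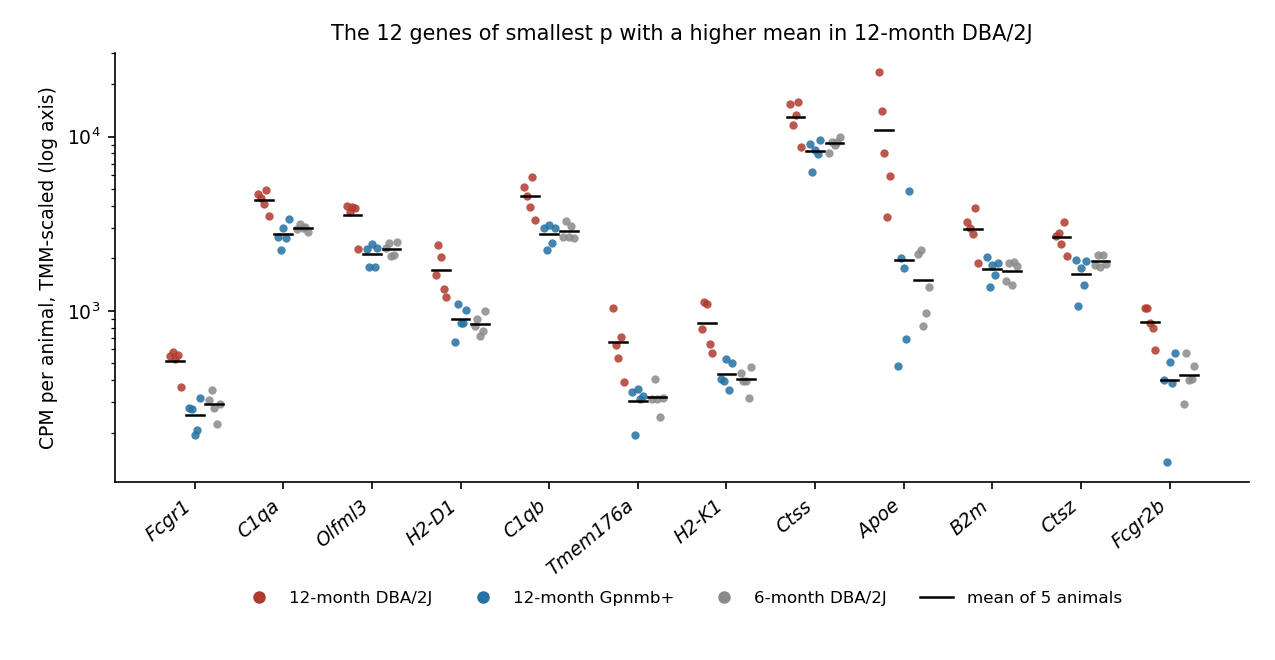
Points are the TMM-scaled CPM of single animals on a log axis for the 12 genes of smallest p with a higher mean in 12-month DBA/2J (average log2 CPM of at least 4), in 12-month DBA/2J (red), 12-month Gpnmb+ (blue) and 6-month DBA/2J (grey), and bars are means of 5 animals. For 8 of the 12 genes all red points lie above all blue points, beside 0.832% of all genes tested. The 12 were picked by p on these same animals, which favours such separation. Apoe has the widest spread, from 483 to 23379 CPM.

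Among the remaining genes of that set, Tmem176a, a membrane protein gene of antigen-presenting cells, had 1037, 634, 538, 712 and 388 CPM in DBA/2J and 341, 195, 355, 313 and 324.5 CPM in Gpnmb+. The groups did not overlap, and the log2 fold change was 1.11 ± 0.25, or 0.95 ± 0.27 without the retinas under 10000 genes. Tmem176b, its neighbour and partner, was at 0.86 ± 0.25. Both lie on chromosome 6 near Gpnmb, the locus that distinguishes the strains, at 189 and 195 kb from it. Among the 21 tested genes within 1 Mb of Gpnmb these were the 2 by nominal p, both higher, beside 2.76% of all genes. The median log2 fold change of the 21 was 0.42, beside 0.05 for all genes. Within 5 Mb the count was again 2 among 44 tested genes, whose median was 0.07. Olfml3, a secreted protein gene typical of microglia, had 4021, 3669.55, 3924, 3901 and 2252 CPM in DBA/2J and 2273, 1775, 2419, 1788 and 2286 CPM in Gpnmb+. Its DBA/2J animal 5 lay among the controls and the other 4 far above. The log2 fold change was 0.75 ± 0.16, and without DBA/2J animal 5 it was 0.90, with an edgeR adjusted p of 0.0487.

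Immediate early genes are switched on within minutes of a stimulus, and most encode transcription factors or brakes on signalling. Every one of the 26 tested had a lower mean in DBA/2J, 18 of them by nominal p, beside 2.45% of all genes. Their median log2 fold change was -1.31, against 0.05 for all genes. The size was smaller without the control retinas with few genes, which also leaves out Gpnmb+ animals 1 and 2 altogether. Then 25 of 26 were negative, 7 were lower by nominal p, beside 2.63% of all genes, and the median was -0.80. Left-out animals moved it between -1.45 and -1.01.

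Ppp1r15a, which restores protein synthesis after stress, had 173, 97.7, 183, 116 and 115 CPM in DBA/2J and 455, 537, 226, 273 and 260.4 CPM in Gpnmb+. Btg2, which restrains cell division, had 1109, 684, 1184, 655 and 686 CPM in DBA/2J and 3147, 2299, 1747, 1455 and 1299 CPM in Gpnmb+. Neither gene overlapped between groups, and in both the highest values belonged to Gpnmb+ animals 1 and 2, whose retinas had few genes. The log2 fold changes were -1.35 ± 0.29 and -1.20 ± 0.33 (edgeR adjusted p = 0.313 and 0.555), and -0.91 ± 0.26 and -0.75 ± 0.34 without the retinas under 10000 genes. DBA/2J microglia at 6 months, whose retinas all had at least 13818 genes, had 382 ± 103 CPM of Ppp1r15a and 1512 ± 816 of Btg2 (SD, n = 5). Over the 26 genes, the 6-month mean CPM was nearer to that of 12-month DBA/2J in 16, among them Fos, Junb, Ier3 and Ier5, and nearer to that of Gpnmb+ in 10.

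The subunits of the AP-1 factor had lower means in DBA/2J. Jun had 2772, 2116, 2588, 2230.5 and 1481 CPM in DBA/2J and 8861, 5716, 4601, 5278 and 2466 CPM in Gpnmb+. Animal 5 of Gpnmb+ lay within the DBA/2J range and the other 4 control animals far above it. Log2 fold changes were -1.27 ± 0.32 for Jun, -0.66 ± 0.21 for Junb, -0.93 ± 0.33 for Fos and -1.46 ± 0.59 for Fosb. Without the retinas under 10000 genes they were -0.85 ± 0.33, -0.36 ± 0.20, -0.74 ± 0.33 and -1.39 ± 0.68. Among the zinc finger factors, Egr2 had 6.33, 2.17, 3.01, 2.44 and 5.74 CPM in DBA/2J and 146, 97.3, 50.5, 6.83 and 3.69 CPM in Gpnmb+. Its high values were those of control animals 1, 2 and 3, and its log2 fold change was -3.95 ± 1.02, or -2.13 ± 1.00 without the retinas under 10000 genes. Egr1 was at -1.16 ± 0.40 and Atf3, a stress-induced factor, at -2.59 ± 0.79, or -0.66 ± 0.42 and -1.30 ± 0.78 without those retinas.

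Ier2, a nuclear protein gene, had 389.97, 387, 649, 217 and 255 CPM in DBA/2J and 2811, 1624, 892, 423.5 and 1175 CPM in Gpnmb+. Of the DBA/2J animals 4 lay below all controls (-1.87 ± 0.50, or -1.04 ± 0.49 without the retinas under 10000 genes). Rhob, a small GTPase gene, had 64.3 to 109.61 CPM in DBA/2J and 109.54 to 645 CPM in Gpnmb+. Its log2 fold change of -1.71 ± 0.39 was -0.56 ± 0.32 without the retinas under 10000 genes.

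The upstream sequences of the 2 immediate early genes that separated the groups and have the cyclic AMP response element, TGACGTCA, are shown with that element in capitals, 5′ to 3′ on the gene's strand, from RefSeq on GRCm38.p6. They are Btg2 at chr1:134079289-134079346 and Ppp1r15a at chr7:45526269-45526305, both on the minus strand.
Btg2: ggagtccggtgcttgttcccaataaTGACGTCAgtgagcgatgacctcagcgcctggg
Ppp1r15a: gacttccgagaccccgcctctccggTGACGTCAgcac
In the 250 bases before a start the element was found, on both strands, in 4 of the 24 immediate early genes with an entry (16.7%; Btg2, Dusp1, Ppp1r15a and Maff), and in 3.14% of tested genes with an entry. The CArG box was found in 2 of the 24 (8.33%; Egr2 and Zfp36) against 1.26% of tested genes, and TGANTCA, letters of the AP-1 site, in 0 of the 24 against 4.98%.

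**Figure D3:**
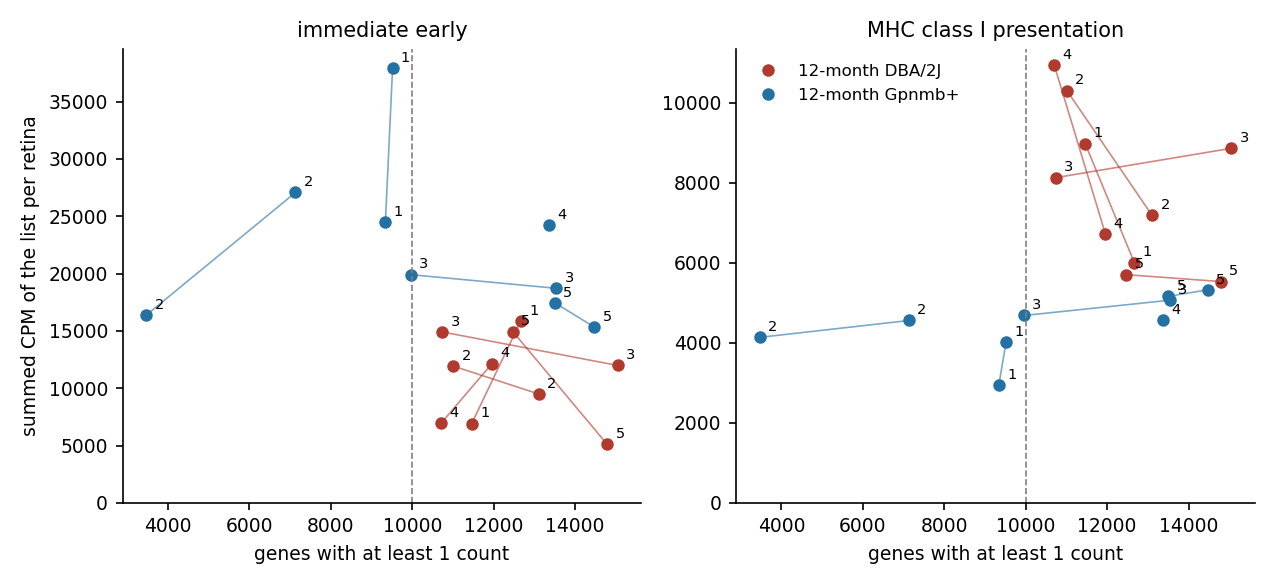
Each point is 1 retina at 12 months, with the genes that had at least 1 count on the x axis and the summed CPM of the immediate early list (left) or of the class I presentation list (right) on the y axis. Numbers are animals, lines join the eyes of an animal, and the dashed line stands at 10000 genes. Immediate early sums are 5108 to 15871 in DBA/2J (red) and 15334 to 37921 in Gpnmb+ (blue), and class I sums 5533 to 10942 and 2951 to 5325.

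Summed over the immediate early list, the CPM of DBA/2J animals 1 to 5 were 12713, 10314, 12995, 11013 and 9439.88, and those of Gpnmb+ animals were 30736, 24849, 19209.5, 24208 and 16358.5. By animal the groups were separate, and by retina, as the plot shows, the left eye of DBA/2J animal 1 (15871) lay above the left eye of Gpnmb+ animal 5 (15334). The 5 control retinas with few genes had a median of 24464, the 4 other control retinas 18079 (15334 to 24208), and the 10 DBA/2J retinas 11952 (5108 to 15871), so that DBA/2J and the fuller control libraries overlapped. The class I list did not overlap: its lowest DBA/2J retina had 5533 and its highest control retina 5325 summed CPM. All few-gene libraries are control libraries, so gene detection moves with the strain here. The values without them rest on 3 control animals, so gene detection and the choice of animals cannot be told apart in the change. In such bulk samples, fewer cells of a kind and less RNA per cell cannot be told apart.

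**Figure D4:**
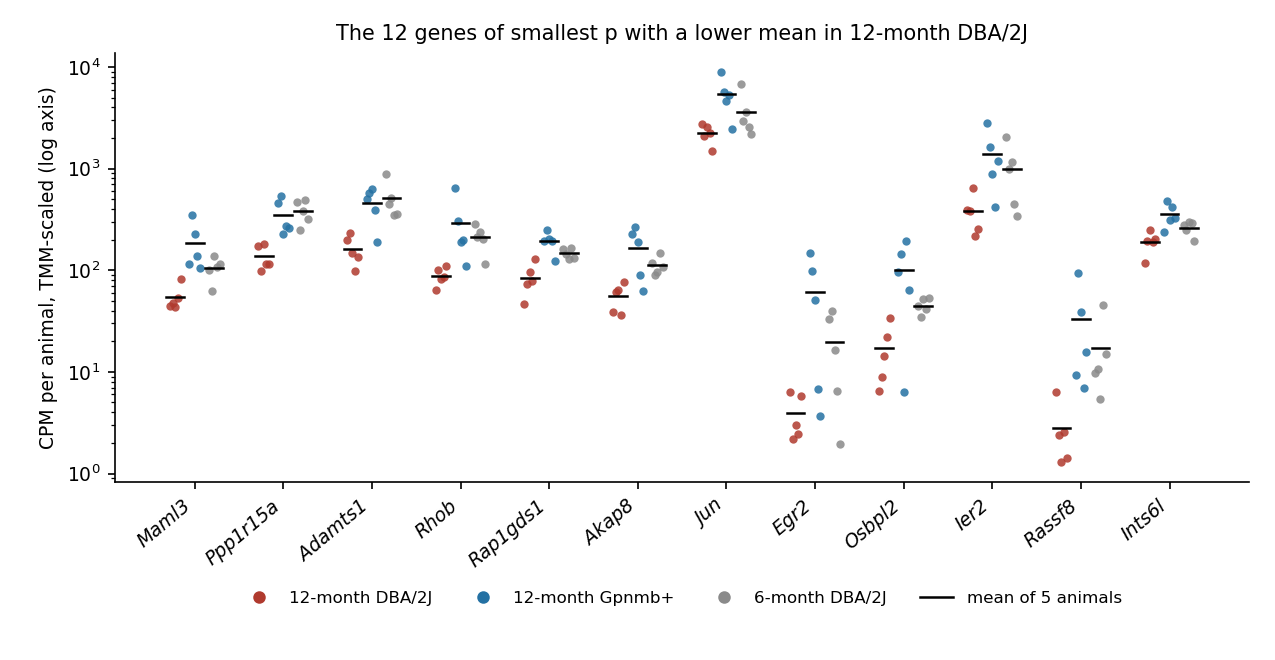
Points are the TMM-scaled CPM of single animals on a log axis for the 12 genes of smallest p with a lower mean in 12-month DBA/2J (average log2 CPM of at least 4), in the colours of the plot of higher genes, with bars at the means of 5 animals. For Maml3, Ppp1r15a and Rassf8 all red points lie below all blue points, beside 0.285% of all genes tested. The 12 were picked by p on these same animals, which favours such separation.

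Outside the immediate early list, Maml3, a co-activator of Notch signalling, had the smallest p of the lower genes. It had 44.1, 47.8, 43.1, 53.6 and 81.3 CPM in DBA/2J and 115, 348, 226, 139 and 105 CPM in Gpnmb+. The groups did not overlap, and the log2 fold change was -1.79 ± 0.36 (edgeR adjusted p = 0.313), or -1.18 ± 0.30 without the retinas under 10000 genes. Sgk1, a kinase induced by glucocorticoids and cell stress, had 593, 479, 690.35, 231 and 495 CPM in DBA/2J and 949, 1696, 874, 1019.54 and 711 CPM in Gpnmb+. Its groups were separate as well (-1.08 ± 0.31, or -0.90 ± 0.32 without those retinas), and 6-month DBA/2J microglia had 1238 ± 454 CPM.

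Adamts1, a secreted protease gene, had 199.98, 233, 148, 98.3 and 136 CPM in DBA/2J and 507, 577, 629, 392 and 188 CPM in Gpnmb+ (-1.49 ± 0.34, or -1.29 ± 0.38 without those retinas). Rassf8, with 1.29 to 6.41 CPM in DBA/2J and 6.90 to 93.9 in Gpnmb+, separated by a small gap at a low level. The splicing kinase Clk1 (-0.59 ± 0.20), the ubiquitin ligase adaptor Wsb1 (-0.78 ± 0.28) and the ribosomal S6 kinase Rps6ka1 (-0.78 ± 0.25) were further well-expressed genes without overlap. Without the retinas under 10000 genes they were at -0.39 ± 0.23, -0.58 ± 0.30 and -0.57 ± 0.24. The anchoring protein gene Akap8 (-1.59 ± 0.39), Rap1gds1, an exchange factor of small GTPases (-1.19 ± 0.29), Osbpl2, an oxysterol-binding protein gene (-2.55 ± 0.66), and Ints6l (-0.90 ± 0.24) overlapped between groups. Without those retinas Akap8 was at -0.63 ± 0.31, Rap1gds1 at -0.88 ± 0.29, Osbpl2 at -2.36 ± 0.67 and Ints6l at -0.84 ± 0.23. Nfkbiz, an inhibitor-like regulator of NF-kB, was at -1.57 ± 0.46, or -1.15 ± 0.46 without those retinas. Higher instead was the chemokine Ccl12, a ligand of Ccr2, with 1234, 912, 781, 663 and 1252 CPM in DBA/2J and 732, 404, 256, 231 and 436 CPM in Gpnmb+ (1.23 ± 0.38, or 1.60 ± 0.43 without the retinas under 10000 genes). Of the DBA/2J animals 4 lay above all controls.

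Genes of the homeostatic state were divided. Of 29 tested, 14 were positive and 15 negative, and 3 were higher and 3 lower by nominal p, beside 2.76% and 2.45% of all genes. The median was -0.03, or -0.20 without the retinas under 10000 genes. The 3 lower ones, Rhob, Jun and Egr1, are also on the immediate early list, and the 3 higher ones were Olfml3, Tmem119 and Trem2. Tmem119, a membrane protein gene specific to microglia, had 2244, 2571, 2962, 2601 and 1696 CPM in DBA/2J and 1011, 1348, 1522, 1975 and 1912 CPM in Gpnmb+ (0.64 ± 0.18, or 0.36 ± 0.16 without those retinas). The purine receptor P2ry12 had 1708 to 2776 CPM in DBA/2J and 1761 to 3323 in Gpnmb+. Its log2 fold change was -0.22 ± 0.19, and -0.45 ± 0.18 without the retinas under 10000 genes. The fractalkine receptor Cx3cr1 was at -0.03 ± 0.19, and the transcription factor Sall1 at -0.43 ± 0.28, or 0.04 ± 0.23 without those retinas. TGF-beta signalling, which maintains this state, had 16 genes tested with 0 higher and 1 lower by nominal p (2.45% of all genes): Skil, a feedback repressor (-0.81 ± 0.29).

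Lists of metabolism, interferon response, iron and chaperones are set beside all genes, of which 52.5% were positive, 2.76% higher and 2.45% lower by nominal p. Of 37 cytosolic ribosomal protein genes 35 were positive and 8 higher, led by Rpl8 (0.72 ± 0.24), with a median of 0.42, or 0.51 without the retinas under 10000 genes. Of 40 oxidative phosphorylation genes 33 were positive and 1 higher, a share near that of all genes, Cox4i1 (0.61 ± 0.24), with a median of 0.40, or 0.58 without those retinas. Pseudogenes can take reads from the ribosomal protein genes. Glycolysis had 9 of 18 positive and a median of -0.03. Of 25 type I interferon response genes 17 were positive, with 1 higher, Ifi27l2a, and 1 lower, the RNA sensor Ifih1 (-2.02 ± 0.80, or -0.32 ± 0.95 without those retinas). Ifi27l2a had 51.6 to 77.8 CPM in DBA/2J and 0 to 15.2 in Gpnmb+, without overlap, and the list's median was 0.25, or 0.07 without the retinas under 10000 genes. Class II MHC genes had 0 of 7 past a nominal p of 0.05, with a median of 0.28, or 1.38 without those retinas. Of 12 iron handling genes 2 were higher (2.76% of all genes): the ferritin heavy chain Fth1 (0.57 ± 0.23) and Cp, which encodes the iron oxidase ceruloplasmin, with 33.1 ± 7.26 against 4.25 ± 4.83 CPM and no overlap between groups. Heat shock chaperones had 10 of 15 negative and 1 lower, Dnajb1 (-1.68 ± 0.52, or -0.82 ± 0.51 without those retinas), with a median of -0.21 that became 0.16 without those retinas. Dnajb1 was at 437 and 489 CPM in Gpnmb+ animals 1 and 2 and at 63.5 CPM in animal 5.

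**Figure D5:**
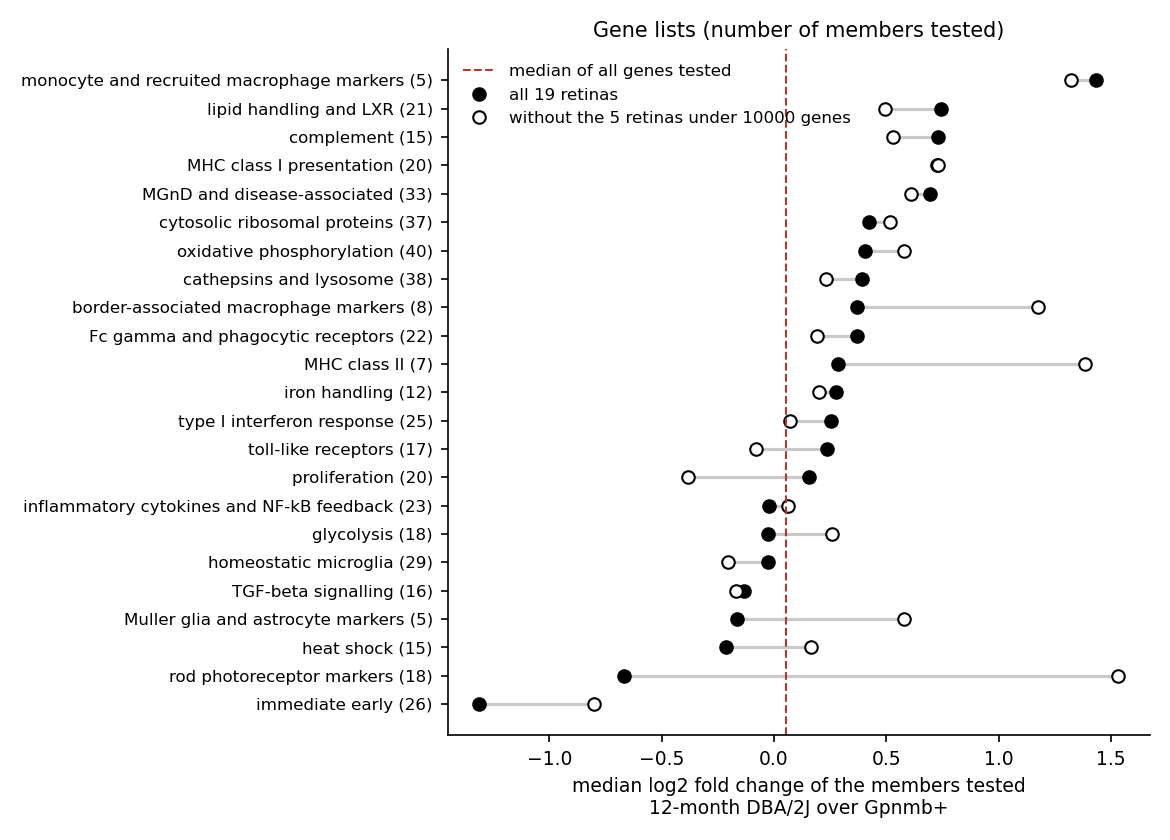
The median log2 fold change of 12-month DBA/2J over Gpnmb+ is on the x axis for each gene list with at least 5 members tested (number in brackets), with all 19 retinas (filled) and without the 5 retinas under 10000 genes (open), and the dashed line is the median of all genes tested, 0.05. The immediate early list stays lowest (-1.31 and -0.80), the class I list is at 0.73 under both, and rod markers move from -0.67 to 1.53.

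Markers of other cells were uneven. Of 18 rod genes tested 16 were negative, with a median of -0.67, but none by nominal p. Summed CPM of the rod list were 3065, 2318, 1287, 649.87 and 2889 in DBA/2J and 491, 12774, 1884, 929.93 and 659.52 in Gpnmb+. Gpnmb+ animal 2 stood far above the other 9 animals, and without it the median was 1.00. Without the retinas under 10000 genes 17 of 18 were positive and the median was 1.53. Of the 15 monocyte and recruited macrophage markers 5 passed the filter on low counts and 6 were at 0 in every DBA/2J animal, and the list summed to 513 to 1335 CPM in DBA/2J and 130 to 559 in Gpnmb+. Its well-expressed member Lyz2, a lysozyme gene that is also on the disease-associated list, had 1355, 1195, 474, 802 and 459 CPM in DBA/2J and 172, 111, 361, 112 and 487 CPM in Gpnmb+ (1.79 ± 0.52, or 1.61 ± 0.61 without those retinas). Ccr2, the defining receptor of inflammatory monocytes, had 4.35, 1.87, 7.53, 6.24 and 39.1 CPM in DBA/2J and 1.27, 5.01, 10.7, 5.05 and 4.65 CPM in Gpnmb+. Border-associated macrophage markers had 6 of 8 tested positive, with summed CPM of 80.6 to 331 against 7.21 to 241. The neutrophil list summed to 183 to 478 CPM in DBA/2J and 109 to 558 in Gpnmb+, with 7 of its 8 members at 0 in every animal of each group, and the lymphocyte list to 25.6 to 46.5 and 0 to 69.8. Markers of Muller glia and astrocytes summed to 285 to 426 and 239 to 566 CPM. The part of these other cells in the results above was not tested.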

How the data were processed

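RNA of sorted retinal microglia was measured in 19 retinas of 10 mice aged 12 months, with 5 retinas of 5 DBA/2J mice aged 6 months in the same fit. The deposited tables give expected counts per gene for each retina, which are read estimates with decimals, per the file headers. TPM values, which scale for gene length, stand beside them in the deposited tables per the file headers and were used only for the ranks of marker genes, as means over an animal's eyes. The submitters' processing notes name mm10, Salmon 1.4.0, R 4.0.3 and DESeq2 1.30.1, with no roles, and the counting tool for these tables is not given in the sources used here. A deposited table of FPKM with 24 columns of per-sample values was not used.

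Expected counts were rounded per retina and summed per animal. The test was the quasi-likelihood F test of edgeR 4.0.16 in R 4.3.3, after TMM scaling and filterByExpr (minimum count 10, minimum total 15). The fit held 3 group means over 15 animals, and the two-sided p-values received a Benjamini-Hochberg adjustment across every gene tested. The SE of a log2 fold change is its size divided by the square root of F. CPM per animal are TMM-scaled, and CPM per retina and summed CPM of lists use library totals. The procedure was tested on simulated counts. Retinas of a group always differed by more than sampling noise (smallest chi-square per degree of freedom 81.8). Symbols and coordinates came from GENCODE M21 on GRCm38, which named 47310 of 47729 gene IDs, and promoters from the RefSeq table of GRCm38.p6. A count of 0 allows up to 3 counts of the library total, for counting error only: 0.149 to 1.76 CPM in 12-month DBA/2J retinas and 0.202 to 3.07 CPM in Gpnmb+ retinas.

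The comparison, the 30 gene lists (589 of 592 entries were in the files) and the rule for named genes were chosen with earlier results of these data known, so list counts are descriptions and no list was tested. Named were Gpnmb and Tyrp1, the 12 genes per direction with the smallest p at an average log2 CPM of at least 4, up to 4 members with the smallest p (average log2 CPM of at least 2) of each list described, a fixed set of microglia genes (Sall1, Fcrls, Cx3cr1, P2ry12, Tmem119, Axl, Trem2, Clec7a, Itgax, Apoe, Lgals3 and Spp1), and up to 6 well-expressed genes per direction without overlap. C1qc, Cfb, Cd93, Apoc2, Fcer1g, Psmb10, Tap1, Tap2, Cd63, Lamp1, Junb, Fos, Fosb, Egr1, Atf3, Tmem176b, Fth1, Cp, Ier3, Ier5, Glul, Aqp4, Rlbp1, Pecam1, Mrc1, Plac8 and Cd79a were named after their values were seen. A few genes that the rule names are not reported here. Alternatives were DESeq2 1.42.0, RLE scaling, 2 filters on low counts, the 12-month animals alone, leaving out retinas with few genes or low totals, 1 retina per animal, sample quality weights and a random animal effect (limma 3.58.1), a block on the animal number, and omission of every animal in turn.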

Additional observations from a re-analysis of the deposited data

Results flagged for a closer look

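Of 165 groups of 5 animals or 9 retinas checked for a value far from the rest, 16 held one (a gap to the nearest value above 0.71 of the whole range for 5 values and 0.493 for 9). For normally distributed values about 1 in 20 would hold one. CPM are skewed and often 0, so the 16 cannot be read as an excess. In 12-month DBA/2J, animal 5 had 366.72 CPM of Fcgr1 (the others 526.72 to 579.45), 2252.34 CPM of Olfml3 (3669.55 to 4020.74), 81.301 CPM of Maml3 (43.137 to 53.558) and 39.124 CPM of Ccr2 (1.87 to 7.53). For Fcgr1, Olfml3 and Maml3 this animal lay on the side of the controls. Animal 1 had 6.41 CPM of Rassf8 (1.29 to 2.58), and animal 4 had 120.54 CPM of Dnajb1 (72.773 to 85.712).

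In Gpnmb+, animal 2, both of whose retinas had fewer than 10000 genes, held 6 of these values. It had 194.83 CPM of Tmem176a (the others 313.15 to 354.88) and 4.0 CPM of the signal transducer Smad2 (28.747 to 35.821). Among rod genes it had 1756.46 CPM of Gnb1 (84.574 to 253.26), 262.11 of Pde6b (26.166 to 91.568), 2118.08 of Gnat1 (69.896 to 454.75) and 259.5 of Cngb1 (0.819 to 47.064). Animal 1 had 1594.74 CPM of Ccl4 (144.62 to 481.77) and 22.529 CPM of Vim (0 to 3.69), and animal 5 had 6.52 CPM of Ch25h, which was 0 in the other 4. Gpnmb had 30.919 CPM in the left eye of Gpnmb+ animal 5 and 0 in the other 8 Gpnmb+ retinas.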

How the results depend on the processing

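With 5 animals a group, and with as few as 977886 counts in a control retina, precision is limited for genes of low level. Genes called numbered 104 by DESeq2 and 8 with a random animal effect (all higher, among them Cst3 at 0.38 and Nrp1), 0 to 1 on leaving out an animal (Olfml3 without 12-month DBA/2J animal 5), and 0 otherwise. Genes at an unadjusted p under 0.05 (676) numbered 1051 by DESeq2, 3632 with no filter, 336 with the 12-month animals alone, 1057 without retinas under 10000 genes, 1410 with a random animal effect, and 664 to 1167 on leaving out an animal (highest without Gpnmb+ animal 5). Genes without overlap (145) numbered 615 without retinas under 10000 genes (5 against 3 animals) and 224 to 392 on leaving out an animal. Of the 676 genes, 669 kept their sign without the retinas under 10000 genes, and 51.2% of them were again under 0.05. The median of all genes, 0.05, was 0.59 with a random animal effect, 0.31 with the block, 0.11 with the larger retina of each animal and with sample quality weights 0.13. It was 0.004 with RLE scaling and 0.005 by DESeq2. The share of genes under 0.05 that were higher, 53.0%, was 90.0% with a random animal effect, 65.9% with the block, 64.4% without retinas under 10000 genes and 69.3% without Gpnmb+ animal 5. The share was smaller with RLE scaling (44.9%) and by DESeq2 (45.1%). It was also smaller with the stricter filter of at least 50 counts in 5 animals (46.6%) and with the 12-month animals alone (47.9%). With the animal number as a replicate block 604 genes were under 0.05 (398 higher, 206 lower) and 0 were called. The numbers do not pair the animals: correlations of same-numbered deviations were -0.0065 to 0.0239, and 1 of 5 matched its own number best. Directions reversed without retinas under 10000 genes for Dnaja1 (0.24), Gnb1 (0.78), Pde6b (0.20), Gnat1 (0.96), Cngb1 (1.79) and Sall1 (0.044), and for Cx3cr1 with the larger retina of each animal (0.013). On leaving out an animal, log2 fold changes ran from -0.069 to 1.57 for Ccr2, -1.20 to 0.74 for Gnb1, -1.11 to 0.18 for Pde6b, -1.22 to 0.59 for Gnat1, -2.22 to 0.10 for Cngb1 and -0.12 to 0.11 for Cx3cr1. The causes were not tested. Of the values for single genes, 1320 kept their direction and call, 25 became called, 24 of them by DESeq2, and 15 reversed. Of the list medians, 350 kept their sign within the spread between animals, 48 (of 11 lists, among them the homeostatic, glycolysis and cytokine lists) changed sign within that spread, and 8 moved beyond it, 5 of them with a change of sign.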
